A study of Mus musculus with 4 samples.

Results

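The 7 genes described here, Snai1, Snai2, Zeb1, Zeb2, Twist1, Twist2 and Prrx1, encode transcription factors of the epithelial to mesenchymal transition (EMT). They were taken by gene symbol from the 28545 genes listed for each library, and each symbol matched 1 gene. The set was chosen with earlier results of these data known. All 7 passed the filter for testing, a mean of at least 1 FPKM (counted fragments scaled to exon length and library total). The RNA was polyadenylated RNA of mouse uterus, labelled as endometrium (its inner lining). There were 4 libraries: 2 labelled Smad7 fl/fl, in which the Smad7 gene carries loxP sites and for which the treatment label reads blank, and 2 labelled Smad7 Cre+/-, for which it reads CKO. They are called floxed 1, floxed 2, Cre 1 and Cre 2. The design text gives proestrus for all of the mice and speaks of uterine tissue, of knockout and of wild-type mice. The floxed allele was made by injecting Cas9 mRNA, guide RNA and a loxP donor into fertilised eggs. Which Cre line was used, which exons it deletes, and the ages and number of the animals: not given in the sources used here. The labels do not say that libraries come from separate animals, so every p-value measures how far these particular libraries differ, a spread that may be technical only.

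In EMT, epithelial cells lose their junctions and take on the shape and motility of mesenchymal cells. SNAI1, SNAI2, ZEB1 and ZEB2 are zinc finger repressors that bind E-box sequences in the promoters of epithelial genes such as Cdh1 (E-cadherin). TWIST1 and TWIST2 are basic helix-loop-helix factors that pair with E proteins, and PRRX1 is a paired-related homeodomain factor of limb and connective tissue mesenchyme. TGF-beta, BMP, Notch and growth factor signals are known to raise several of these genes, and SMAD7 inhibits TGF-beta and BMP receptor signalling. The same factors are made by resident fibroblasts, pericytes, smooth muscle and, for some, immune cells, so in whole tissue their transcripts do not mark cells in transition. In bulk RNA, fewer cells of a type and less RNA per cell cannot be told apart.

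Total counts per library ran from 17444368 to 22950532. The 2 floxed libraries differed from each other more than the 2 Cre libraries did: the biological coefficient of variation was 0.403 in the floxed pair and 0.163 in the Cre pair, and Spearman's rho across genes was 0.908 and 0.985. Smad7 went against the labels. It stood at 7.79 and 7.81 FPKM under the floxed label and at 49.9 and 33.9 FPKM under the Cre label, 5.37 times higher in the latter (log2 fold change 2.42 ± 0.28, SE; adjusted p = 0.0982). Counts per gene do not tell which exons the reads came from. Every direction below therefore runs between libraries as labelled, not between tissue shown to have and to lack SMAD7. Across the 13513 genes tested with edgeR's quasi-likelihood test, 0 passed a Benjamini-Hochberg adjusted p of 0.05 (0.0% called), and 1876 had an unadjusted p under 0.05 (13.9%). DESeq2 called 843 genes (6.24%).

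None of the 7 factors passed the adjusted threshold in edgeR. Snai2 and Prrx1 were higher in both libraries labelled Cre, 2.39 and 2.03 times, and were the 2 members that DESeq2 called, where it called 3.24% of all tested genes higher. With no filter on low values edgeR called 3 members, Snai2 and Prrx1 higher and Snai1 lower, out of 7.04% of genes called (3.63% higher, 3.41% lower). Snai1 was 2.82 times lower on the fitted scale, a difference set mostly by floxed 1. Zeb1, Zeb2 and Twist1 were 1.247 to 1.288 times higher and Twist2 was 1.42 times lower, none of them past either test. At an unadjusted p under 0.05 there were 2 members higher (Snai2, Prrx1), where 7.3% of all tested genes were higher at that level, and 1 lower (Snai1), where 6.58% were. In 5 of the 7 the 2 groups of FPKM values did not overlap, 3 higher and 2 lower; for all tested genes the figures were 47.9% in either direction, 23.8% higher and 24.1% lower. With 2 libraries against 2, the exact two-sided permutation test cannot go below p = 0.3333, so it can call none of them.

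**Figure D1:**
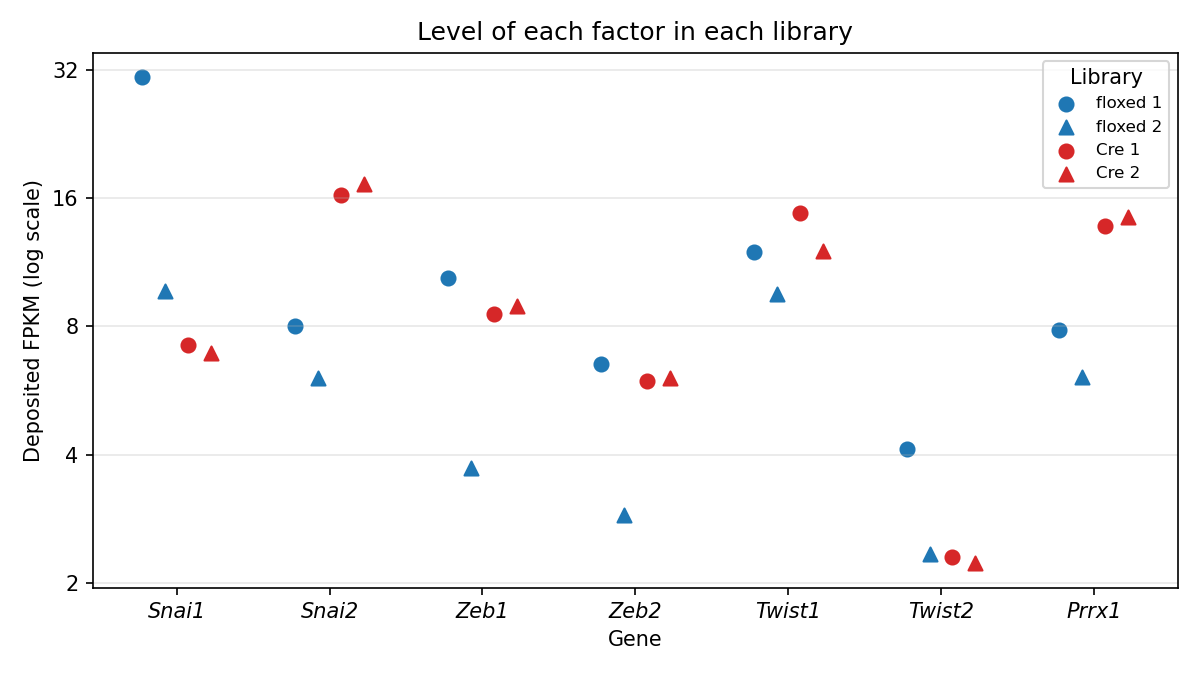
FPKM of the 7 factors in each library (vertical axis, log scale); each point is 1 library, blue for floxed and red for Cre, circles for replicate 1 and triangles for replicate 2. Snai2 and Prrx1 sit higher in both Cre libraries, Snai1 stands at 30.8 FPKM in floxed 1 and at 6.93 to 9.70 FPKM in the other three libraries, and Zeb1 and Zeb2 are lowest in floxed 2.

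FPKM divides by length, here that of all annotated exons of a gene, which can exceed the length of any 1 transcript. It was 20203 bases for Zeb2 (29 transcripts), 11066 for Prrx1 (5), 10266 for Zeb1 (12) and 3174 for Twist2 (2). For Snai1, Snai2 and Twist1, with 1 transcript each, it was 1621, 2021 and 1628 bases. The order of genes, sums over genes and shares of a sum therefore rest in part on the annotation. How far it set the order below was not tested. Averaged over the 4 libraries the order was Snai1 (13.7 FPKM), Twist1 (12.1), Snai2 (11.9), Prrx1 (10.5), Zeb1 (7.90), Zeb2 (5.35) and Twist2 (2.75). The order at the top was not the same in each library. Snai1 ranked 1 in both floxed libraries and 5 in both Cre libraries, whereas Snai2 ranked 4 in both floxed libraries and 1 in both Cre libraries. Twist1 ranked 2 or 3 throughout, and Zeb2 and Twist2 were sixth and seventh in every library. The first 4 genes by mean level each spanned ranges that took in the others' means, so their order over the 4 libraries was within their spread. Summed over the 7 factors, FPKM was 79.6 in floxed 1, 40.3 in floxed 2, 68.8 in Cre 1 and 67.9 in Cre 2. The sum was thus lowest in one floxed library and highest in the other.

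The 2 SNAIL genes differed from each other in opposite directions. SNAI1 is the short-lived repressor first known for silencing Cdh1. SNAI2, also called SLUG, is known from neural crest and from basal and stromal cells. On GRCm38 the GENCODE annotation places Snai1 (ENSMUSG00000042821) at chr2:167538195-167542814 on the plus strand and Snai2 (ENSMUSG00000022676) at chr16:14705852-14709385 on the plus strand, and the exons of neither overlap another gene. Their coding sequences are 795 and 810 bases long and are 72.3% identical where aligned. The longest stretch they share is 22 bases from the start codon, which codes for the amino-terminal SNAG repression domain, and is printed to show how little sequence the pair could confuse in counting:

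Snai1 and Snai2 shared run: ATGCCGCGCTCCTTCCTGGTCA

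Snai1 stood at 30.8 FPKM in floxed 1, 9.70 in floxed 2, 7.22 in Cre 1 and 6.93 in Cre 2, from 1145, 286, 232 and 196 counts. Floxed 1 was far above the other three, 3.17 times floxed 2, while floxed 2 was only 1.34 and 1.40 times the Cre libraries. The group means were 20.2 ± 14.9 FPKM in floxed and 7.07 ± 0.202 in Cre (SD, n = 2 each). The log2 fold change was -1.50 ± 0.54 (edgeR unadjusted p = 0.0376, adjusted p = 0.325; DESeq2 adjusted p = 0.106). Without floxed 1 it was -0.51, and without floxed 2 it was -2.08. The gap by which Snai1 was highest in floxed 1, 1.57 on the log2(FPKM + 1) scale, was reached by 146 of 13513 tested genes (1.08%), and floxed 1 was the highest library for 31.8% of them. The summed markers of macrophages and dendritic cells were also highest there, at 978 FPKM in floxed 1 against 554, 459 and 468 FPKM in the others, as were those of pericytes, led by Rgs5, at 201 against 128, 142 and 144 FPKM. Sums of endothelium markers (235 against 191, 189 and 187 FPKM) and adipocyte markers (327 against 141, 117 and 244 FPKM) were highest there too. The part of these cell types in the Snai1 values was not tested.

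Snai2 stood at 7.999 FPKM in floxed 1, 6.07 in floxed 2, 16.3 in Cre 1 and 17.3 in Cre 2, from 371, 223, 652 and 610 counts. Both Cre libraries were more than both floxed libraries, and the gap between the groups was larger than the spread within either. The means were 7.03 ± 1.37 and 16.8 ± 0.731 FPKM (SD, n = 2 each). The log2 fold change was 1.26 ± 0.24 (edgeR unadjusted p = 0.00313, adjusted p = 0.152; DESeq2 adjusted p = 0.00356). Leaving out floxed 1 or floxed 2 gave 1.42 and 1.11, and leaving out Cre 1 or Cre 2 gave 1.29 and 1.22. The size was alike in these 4 fits. Among the tested genes of each library Snai2 stood at percentile 52.9 and 47.4 of FPKM in floxed and at percentile 76.2 and 78.2 in Cre.

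The ratio of Snai2 to Snai1 FPKM, which needs no scaling between libraries, was 0.260 in floxed 1, 0.625 in floxed 2, 2.25 in Cre 1 and 2.50 in Cre 2. Snai1 was thus the more abundant of the pair in both floxed libraries and Snai2 in both Cre libraries. The log2 ratio differed by 2.56 between the groups (exact permutation p = 0.3333, the smallest the design gives), and by 1.92 to 3.19 with 1 library left out. In shares of the summed FPKM of the 7 factors, Snai1 made up 38.6%, 24.1%, 10.5% and 10.2%, and Snai2 10.0%, 15.04%, 23.6% and 25.5%, in the order floxed 1, floxed 2, Cre 1, Cre 2.

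SNAI1 is known to bind an E-box in its own promoter. RefSeq's GRCm38.p6 promoter table has entries for 5 of the 7 members, with 8 start sites among them, and Snai1 is the only one of these with CAGGTG or its reverse complement CACCTG, the E-box that SNAIL and ZEB factors prefer, in the 250 bases before a start. For all 32851 promoters in the table the share with either form was 17.2%, so 1 of 8 says nothing about the members as a group. The Snai1 window, chr2:167537945-167538194 on the plus strand, is shown with its match in capitals, whose first base lies 126 bases before the start:

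Snai1 promoter: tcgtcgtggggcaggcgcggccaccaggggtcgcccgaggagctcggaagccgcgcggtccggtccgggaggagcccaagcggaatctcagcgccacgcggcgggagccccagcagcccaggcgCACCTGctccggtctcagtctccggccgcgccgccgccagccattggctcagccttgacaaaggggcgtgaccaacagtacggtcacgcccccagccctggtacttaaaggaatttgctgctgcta

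Zeb1 and Zeb2 had the same pattern over the libraries, and their group difference was smaller than its error. ZEB1 and ZEB2 are large zinc finger and homeodomain repressors that bind paired E-boxes and recruit CtBP. Zeb1 (ENSMUSG00000024238) lies at chr18:5591860-5775467 on the plus strand and Zeb2 (ENSMUSG00000026872) at chr2:44983632-45117395 on the minus strand of GRCm38. Zeb1 stood at 10.4 FPKM in floxed 1, 3.73 in floxed 2, 8.54 in Cre 1 and 8.95 in Cre 2, from 2448, 696, 1738 and 1603 counts. Zeb2 stood at 6.52, 2.89, 5.94 and 6.05 FPKM, from 3021, 1062, 2379 and 2131 counts. Antisense genes share 1.93% of the exon bases of Zeb1 (Gm10125, 27 to 43 counts) and 3.27% of those of Zeb2 (Zeb2os, 8 to 16 counts). For both genes floxed 2 was low, floxed 1 was the highest, and the 2 Cre libraries lay between them. The log2 fold change was 0.33 ± 0.46 for Zeb1 (edgeR adjusted p = 0.768) and 0.36 ± 0.39 for Zeb2 (adjusted p = 0.694).

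The direction of both rested on floxed 2. Without it the log2 fold change was -0.21 for Zeb1 (adjusted p = 0.534) and -0.082 for Zeb2 (adjusted p = 0.842). Without floxed 1 it was 1.18 (adjusted p = 0.000214) and 1.00 (adjusted p = 0.00109), both called, as were 31.4% of all genes in that fit (21.8% without floxed 2). The gap by which floxed 2 was lowest was reached by 1.21% of tested genes for Zeb1 and by 2.78% for Zeb2, and floxed 2 was the lowest library for 37.4%. Summed epithelial markers, led by Wfdc2, were highest in that library, at 2307 FPKM against 1236, 1666 and 1373 FPKM in floxed 1, Cre 1 and Cre 2. Lowest in it were the sums of smooth muscle markers (688 against 840, 1537 and 1238 FPKM) and pericyte markers (128 against 201, 142 and 144 FPKM). The mesothelium sum was lowest there too (26.4 against 43.3, 80.7 and 55.8 FPKM). The part of any of these cell types in the ZEB values was not tested. The ratio of Zeb1 to Zeb2 FPKM was 1.59, 1.29, 1.44 and 1.48, a log2 difference of 0.02 between the groups (exact permutation p = 1.0).

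ZEB transcripts are the best known targets of the miR-200 family, microRNAs of epithelial cells whose genes the ZEB proteins in turn repress. Mature microRNAs are not measured in polyadenylated RNA, so only the sequences can be described. The 5 mature members, from RefSeq on GRCm38.p6, are shown with the seed (bases 2 to 8) in capitals, since it sorts them into 2 groups that differ at 1 seed base:

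miR-200b-3p: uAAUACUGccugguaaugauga
miR-200c-3p: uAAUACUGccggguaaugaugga
miR-429-3p: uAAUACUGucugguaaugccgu
miR-200a-3p: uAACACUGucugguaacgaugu
miR-141-3p: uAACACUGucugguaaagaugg

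The complements of these seeds are CAGTATT and CAGTGTT. In the GENCODE 3′ untranslated region of 1 transcript per gene, counted on the transcript strand, Zeb1 held 5 and 4 of them and Zeb2 held 5 and 3. As many or more in total were found in 2 of 20574 genes for Zeb1 (0.00972%) and in 8 for Zeb2 (0.0389%), the gene itself included. Among genes with a region of like length, 2443 for Zeb1 and 2852 for Zeb2, the shares were 0.0409% and 0.0351%. Each of these shares is the gene itself alone. Snai2 held 2 (7.08% of genes had as many), Snai1 held 1 (23.8%), and Twist1, Twist2 and Prrx1 held 0. The ZEB pair thus stands apart from the other five in this feature. The 4 of 8 Zeb2 matches below, on the minus strand of chromosome 2, are shown with the seed match in capitals because they cover both forms of the match:

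chr2:44988351-44988379: tgcaaaaattttgtaCAGTGTTaaggcct
chr2:44988167-44988195: cgcactaccatacatCAGTATTttattat
chr2:44988102-44988130: cgcactacagtgcatCAGTATTacgattc
chr2:44987655-44987683: gttcattaattttgtCAGTATTacaccaa

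Twist1 was at a similar level in all 4 libraries. TWIST1 drives mesoderm and cranial mesenchyme development, and TWIST2, also called DERMO1, is its close relative in dermis and other connective tissue. Twist1 (ENSMUSG00000035799, chr12:33957671-33959829, plus strand) stood at 11.99 FPKM in floxed 1, 9.52 in floxed 2, 14.8 in Cre 1 and 12.01 in Cre 2, from 448, 282, 477 and 341 counts. The groups did not overlap, but the gap between floxed 1 and Cre 2 was far smaller than the spread within either pair. The means were 10.8 ± 1.75 and 13.4 ± 1.96 FPKM (SD, n = 2 each), with a log2 fold change of 0.32 ± 0.26 (edgeR adjusted p = 0.619).

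Twist2 (ENSMUSG00000007805, chr1:91801461-91848028, plus strand) was the least abundant of the 7. It stood at 4.13 FPKM in floxed 1, 2.34 in floxed 2, 2.30 in Cre 1 and 2.22 in Cre 2, from 301, 135, 145 and 123 counts, so floxed 1 was high and the other three were level. The log2 fold change was -0.51 ± 0.38 (edgeR adjusted p = 0.589) and was -0.10 without floxed 1. Of its exon bases, 46.5% also lie in exons of Gm29100 on the other strand, which had 25 to 53 counts, and the strand setting of the counting is not given in the sources used here, so reads of the 2 genes may not have been told apart. Coding sequences of Twist1 and Twist2 are 84.3% identical where aligned, against 71.9% for Prrx1 and Prrx2 and 68.6% for Zeb1 and Zeb2. Over the length of the longer sequence the shares are 65.5%, 67.7% and 57.5%, and 66.4% for Snai1 and Snai2. The order of the pairs thus depends on the measure. The longest run shared by Twist1 and Twist2 lies in the stretch that codes for the basic helix-loop-helix domain:

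Twist1 and Twist2 shared run: CTGCGCAAGATCATCCCCACGCT

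The ratio of Twist1 to Twist2 FPKM was 2.90 in floxed 1, 4.07 in floxed 2, 6.41 in Cre 1 and 5.41 in Cre 2. Both Cre values were above both floxed values, with a log2 difference of 0.78 (exact permutation p = 0.3333).

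Prrx1 was the other member that was higher in both Cre libraries. PRRX1 is expressed in limb bud, craniofacial and adult connective tissue mesenchyme. The gene (ENSMUSG00000026586) lies at chr1:163245119-163313710 on the minus strand, with no exon shared with another gene. It stood at 7.83 FPKM in floxed 1, 6.09 in floxed 2, 13.7 in Cre 1 and 14.5 in Cre 2, from 1989, 1226, 3016 and 2796 counts. Again both Cre libraries lay above both floxed libraries by more than the spread within either pair. The means were 6.96 ± 1.23 and 14.1 ± 0.523 FPKM (SD, n = 2 each), and the log2 fold change was 1.02 ± 0.22 (edgeR unadjusted p = 0.00491, adjusted p = 0.167; DESeq2 adjusted p = 0.00498). It was 0.89 to 1.16 with each library left out.

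**Figure D2:**
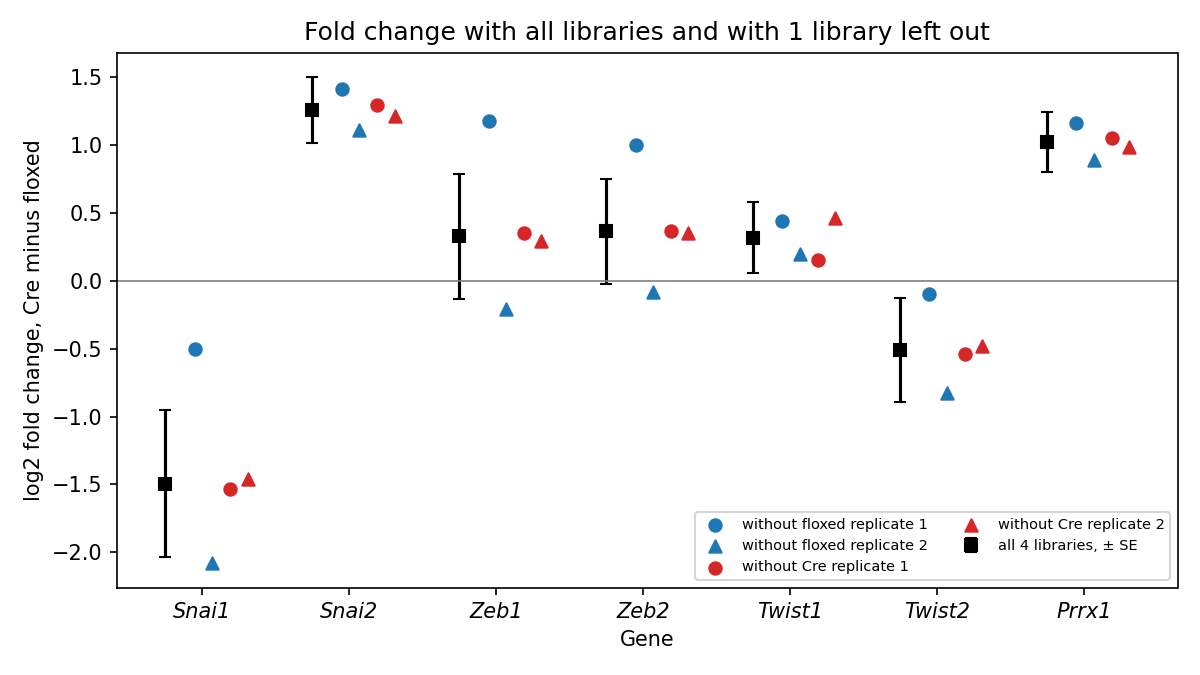
Log2 fold change of each factor, Cre minus floxed (vertical axis); the black square is the edgeR fit with all 4 libraries, its bar is 1 SE either way, and the colored points are the fits without the library named in the key. Snai2, Prrx1 and Twist1 stay above 0 in every fit shown, Snai1 moves from -2.08 to -0.51, and Zeb1 and Zeb2 lie on both sides of 0.

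Marker genes of several cell types stood at different levels in the 2 groups, and some also differed between the 2 floxed libraries. Stroma and epithelium markers were abundant in every library, as endometrium should hold. Dcn, a stromal proteoglycan, stood at 216, 590, 513 and 541 FPKM and the summed stroma list at 898, 1233, 1333 and 1331 FPKM (floxed 1, floxed 2, Cre 1, Cre 2). Of its 13 genes 6 were higher and 7 lower in Cre, with a median log2 fold change of -0.14. The sum follows Dcn and Lum, its 2 most abundant genes. Pdgfra, Hoxa10, Hoxa11, Hand2, Nr2f2, Vcam1, Mme and Islr, in contrast, were highest in floxed 1, and Col6a3, a collagen chain, stood at 34.4 and 9.72 FPKM in floxed and at 123 and 82.8 in Cre. Smooth muscle markers, summed over 13 genes, stood at 840 and 688 FPKM in floxed and at 1537 and 1238 FPKM in Cre. Of these, 12 of 13 were higher in Cre, 7 at an unadjusted edgeR p under 0.05 and 0 past the adjusted threshold. Of all tested genes, 7.3% were higher at that unadjusted level. The list was led in level by Actg2, a smooth muscle actin, at 227, 240, 430 and 341 FPKM. Smooth muscle transcripts were thus present in every library and made up more of the 2 Cre libraries.

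Other lists also differed between the labels. Mesothelium markers summed to 43.3 and 26.4 FPKM in floxed and to 80.7 and 55.8 in Cre, with 7 of 8 higher, but the most abundant, Wt1, which stroma also makes, was not among them (24.0, 12.4, 14.9 and 18.9 FPKM). Oviduct and ovary markers summed to 23.7 and 44.95 FPKM in floxed and to 103 and 311 in Cre, with 8 of 8 tested genes higher. Ovgp1, an oviduct glycoprotein, held most of that sum in every library but floxed 1, at 0.489, 23.4, 56.0 and 243 FPKM; in floxed 1 most of it was Foxl2, at 17.2 FPKM, which was level across the libraries (log2 fold change 0.02). T and NK cell markers were lower in Cre in 12 of 12, with sums of 65.5 and 67.9 against 19.6 and 18.8 FPKM, led by Nkg7. Macrophage and dendritic cell markers were lower in 11 of 14, led by Lyz2 (418, 229, 187.5 and 248 FPKM). Endothelium markers, led by Plvap, were nearly level at 235, 191, 189 and 187 FPKM. Neutrophil genes were lower in Cre in 5 of 6 tested, all 5 called by DESeq2 and 0 by edgeR, where DESeq2 called 3.0% of all tested genes lower. S100a8, a calgranulin, stood at 16.7 and 35.5 FPKM in floxed and at 0.0727 and 0.248 in Cre, S100a9, its partner, at 20.2 and 60.1 against 0.193 and 0.879, and Cxcr2, a neutrophil chemokine receptor, at 2.32 and 1.89 against 0.0331 and 0.0188. Csf3r and Retnlg were lower too. The list's sum of 403, 769, 1095 and 670 FPKM does not show this, since Ltf, which uterine epithelium also secretes, held most of it and was the 1 tested gene that was higher. Camp had at most 3 counts in any library. Adipocyte markers, led by Cfd, summed to 327, 141, 117 and 244 FPKM and did not separate the groups.

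**Figure D3:**
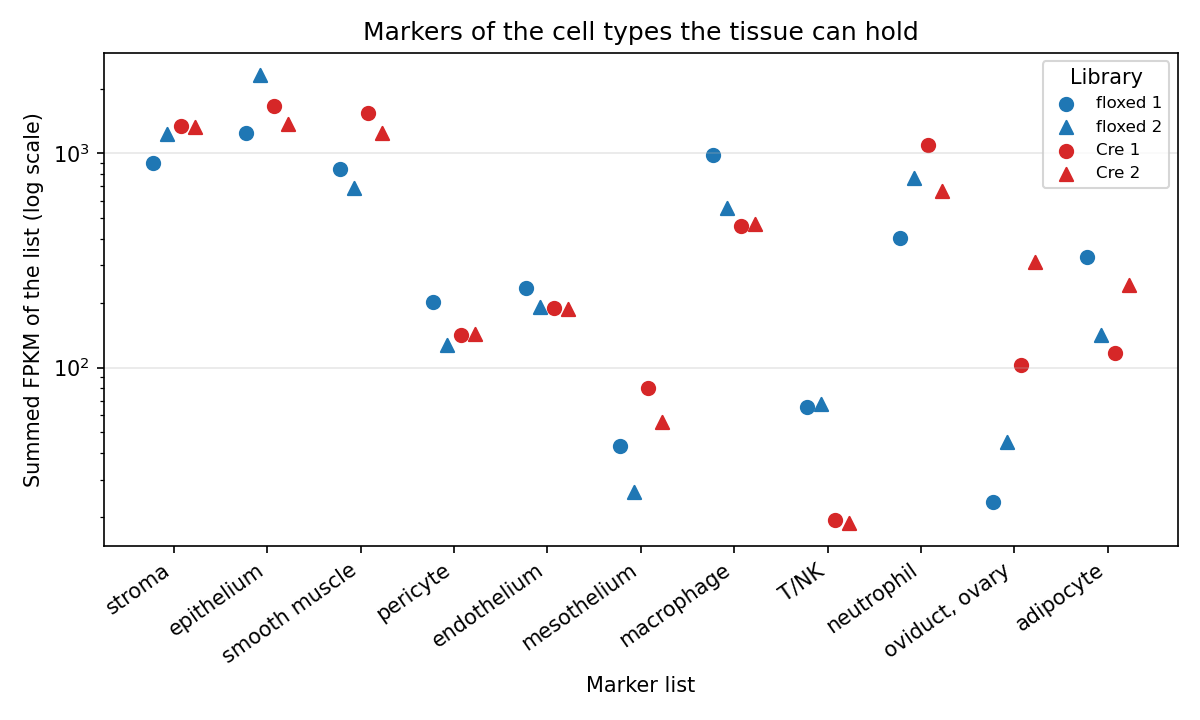
Summed FPKM of the cell type marker lists in each library (vertical axis, log scale); each point is 1 library. Smooth muscle, mesothelium and oviduct or ovary sums are higher in both Cre libraries, and T and NK cell sums are lower in both. Pericyte, macrophage, endothelium and adipocyte sums are highest in floxed 1.

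How the factors compared with these markers in the same library depended on the marker chosen; these scales were added after the data were seen. Per 1000 FPKM of summed stroma markers, a scale led by Dcn and Lum, Snai2 stood at 8.91 and 4.92 in floxed and at 12.2 and 13.0 in Cre, and Prrx1 at 8.73 and 4.94 against 10.3 and 10.9, without overlap. The stromal receptor gene Pdgfra, at 36.3, 24.5, 22.7 and 22.3 FPKM, was lower in both Cre libraries. Relative to it, Snai2 differed by a log2 value of 1.67 and Prrx1 by 1.44, and Zeb1 (0.90), Zeb2 (0.87) and Twist1 (0.72) were then also higher without overlap. Relative to the summed smooth muscle markers, the difference was 0.41 for Snai2, still without overlap (9.52 and 8.82 against 10.6 and 14.0 per 1000 FPKM). For Prrx1 it was 0.17 with overlap (9.32 and 8.86 against 8.94 and 11.7). Relative to Myh11, the smooth muscle myosin heavy chain, at 167, 93.5, 362 and 296.5 FPKM, the values of Snai2 (-0.12) and Prrx1 (-0.36) turned in sign and the groups overlapped. Both genes were thus higher in the Cre libraries against the summed stroma list and Pdgfra, and overlapped between the groups against Myh11. This rests on the genes picked as scales. Col6a3, of the stroma list, was 4.75 times higher in Cre, more than either gene, and was not used as a scale. Myh11 had a log2 fold change of 1.35, above the smooth muscle list's median of 0.795. What part muscle RNA had in their values was not tested. Snai1 was lower in Cre on each of the 4 scales, by -0.88 to -2.68, with no overlap on any.

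The genes around the 7 factors were read from lists of relatives, partners, regulators and targets. For all 13513 tested genes the median log2 fold change was -0.03, with 6351 higher and 7162 lower; in none of the lists did a gene pass the adjusted threshold in edgeR. Of the 16 genes listed as relatives 7 were tested, with a median of 0.10. The list and its median take in forkhead genes, which are of the family of no member. Foxc1, a forkhead factor of mesoderm also linked to EMT, stood at 0.440 and 0.433 FPKM in floxed and at 3.21 and 3.78 in Cre (log2 fold change 2.996, adjusted p = 0.0919). Prrx2, the paralog of Prrx1, stood at 8.24 and 5.83 against 14.8 and 11.99 FPKM (0.93, adjusted p = 0.269), so both PRRX genes were higher in both Cre libraries. Hand2, the stromal mediator of progesterone action, was lower (25.7 and 15.7 against 13.3 and 9.83 FPKM; -0.83, adjusted p = 0.330), and Tcf21 was level (-0.18). Snai3 was below the filter in the mean, and Scrt1, Scrt2 and Gsc had at most 3 counts in any library.

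E proteins, the partners of TWIST, and ID proteins, which sequester E proteins and are classic BMP targets, had the lowest median of the 8 lists plotted. All 7 were tested, the median was -0.50, and 6 of 7 were lower. Id1 stood at 81.2 and 71.8 FPKM in floxed and at 30.4 and 27.6 in Cre (log2 fold change -1.40, adjusted p = 0.103). Id3 (107 and 55.9 against 30.01 and 29.5 FPKM, -1.44) and Id2 (71.9 and 73.1 against 36.2 and 41.6 FPKM, -0.90) were lower as well. DESeq2 called these 3, where it called 3.0% of all tested genes lower. Id4 was the exception, at 15.4 and 11.6 against 18.7 and 21.6 FPKM (0.58, adjusted p = 0.347). Of the 3 E protein genes, Tcf3 stood at 39.1 and 31.6 against 27.6 and 22.5 FPKM (-0.50, adjusted p = 0.418), and Tcf4 and Tcf12 were level, at -0.04 and -0.01.

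Corepressors and chromatin enzymes that SNAIL and ZEB proteins recruit were near the background. All 15 were tested with a median of -0.14, and 0 had an unadjusted p under 0.05. The 4 with the smallest p were Lmcd1 (0.62), Ezh2 (-0.81), Rcor1 (0.47) and Chd4 (0.48). Kinases, ubiquitin ligases and deubiquitinases that set the half-life of SNAIL, ZEB and TWIST proteins had a median of 0.08 over 13 tested of 14, and 1 gene each way had an unadjusted p under 0.05. Gsk3b, which marks SNAI1 for degradation, stood at 14.5 and 8.83 FPKM in floxed and at 20.0 and 22.4 in Cre (0.87, adjusted p = 0.295). Pak1, a kinase that phosphorylates SNAI1, stood at 10.5 and 12.3 against 6.18 and 7.02 FPKM (-0.80, adjusted p = 0.252). The ubiquitin ligase genes Siah1a (-0.43) and Siah1b (-0.65) followed. These are transcript levels, and the amounts of SNAI1 or ZEB protein were not measured.

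Signals known to raise the factors gave a mixed picture, with a median of -0.06 over 18 tested of 19, 9 higher and 9 lower. Tnf, an inflammatory cytokine, stood at 3.51 and 5.70 FPKM in floxed and at 0.585 and 0.420 in Cre (-3.20, adjusted p = 0.114). Fgf2, a growth factor, stood at 2.91 and 1.56 against 5.17 and 5.75 FPKM (1.30, adjusted p = 0.220). The Notch ligand gene Jag1 (7.86 and 7.78 against 12.1 and 13.0 FPKM; 0.68) and Bmp4 (8.82 and 10.0 against 17.0 and 15.1 FPKM; 0.77) were also higher in both Cre libraries.

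Epithelial genes named as repressed by the factors had a median of -0.00 over 25 tested of 26, 12 higher and 13 lower. Cdh1, the best known target, stood at 76.4 FPKM in floxed 1, 54.7 in floxed 2, 77.7 in Cre 1 and 80.1 in Cre 2 (log2 fold change 0.27). The ratio of Cdh1 to Cdh2, the E-cadherin to N-cadherin ratio often read as an EMT index, was 43.5, 71.0, 54.0 and 66.7 FPKM per FPKM (log2 difference 0.11, exact permutation p = 1.0), with the groups overlapping. Single genes differed more. Cldn4, a tight junction claudin, stood at 42.3 and 39.4 FPKM in floxed and at 8.83 and 8.71 in Cre (-2.22, adjusted p = 0.0919). Cldn3 (140 and 168 against 99.3 and 87.2 FPKM; -0.73) and Ocln, the gene of occludin (13.1 and 15.3 against 6.74 and 8.70 FPKM; -0.88), were lower too. Dsp, the gene of the desmosome protein desmoplakin, stood at 11.6 and 9.64 against 23.6 and 23.2 FPKM (1.14, adjusted p = 0.150).

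Of this epithelial list, 15 genes had 22 promoters in RefSeq's table, and 13 of them (59.1%) held CAGGTG or CACCTG within 250 bases before the start, against 17.2% of all promoters and 0 of 18 of the mesenchymal list (0.0%). For the looser E-box CANNTG, which takes in both, the shares were 72.7% in the epithelial list, 66.2% in all promoters and 9 of 18 in the mesenchymal list. The list was drawn from genes reported as targets, so this describes the list and is no test of it. A match is a stretch of letters, not a bound site. Of the matched genes, Cldn4 and Ocln were lower in Cre. They are shown with Epcam and Cldn7, which were also lower on the fitted scale but by less. For Cldn7 the groups overlapped (78.1 and 147 FPKM in floxed against 101 and 87.8 in Cre). Other matched genes went either way. The 30 base windows are on GRCm38.p6 with the match in capitals, each read on the strand of its gene:

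Cldn4, chr5:134946935-134946964, minus strand: ggagctttaactgcagCACCTGtggccgcc
Ocln, chr13:100552549-100552578, minus strand: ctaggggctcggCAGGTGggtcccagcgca
Cldn7, chr11:69965352-69965381, plus strand: agacttccggttCAGGTGagtgtcccttca
Epcam, chr17:87635948-87635977, plus strand: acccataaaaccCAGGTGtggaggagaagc

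Transcription factors that hold the epithelial state had a median of 0.39 over 8 tested of 12. Grhl2 stood at 3.46 and 6.07 FPKM in floxed and at 7.99 and 7.98 in Cre (0.73, adjusted p = 0.416), Klf4 at 19.6 and 66.5 against 85.2 and 70.0 FPKM (0.82), and Ovol2, a repressor of Zeb1, at 1.34 and 6.35 against 8.62 and 7.68 FPKM (1.06). For these 3 floxed 1 was low and floxed 2 was nearer to the Cre libraries. Ovol1 went the other way, at 1.21 and 2.63 against 0.390 and 0.378 FPKM (-2.33, adjusted p = 0.206). Mesenchymal genes named as raised with the factors were lower more often than higher, 19 of 28 tested with a median of -0.33. Thy1, a fibroblast surface protein, stood at 77.8 and 44.8 against 21.7 and 18.3 FPKM (-1.61, adjusted p = 0.152). Mmp9, a gelatinase, stood at 22.4 and 8.54 against 5.16 and 4.44 FPKM (-1.67), and Lox, a collagen crosslinking enzyme, at 32.9 and 39.1 against 19.6 and 20.8 FPKM (-0.84). Itgb3, an integrin chain, was higher, at 4.40 and 3.89 against 12.3 and 9.78 FPKM (1.42, adjusted p = 0.111). The sign of the mesenchymal list's median turned to 0.47 without floxed 1.

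**Figure D4:**
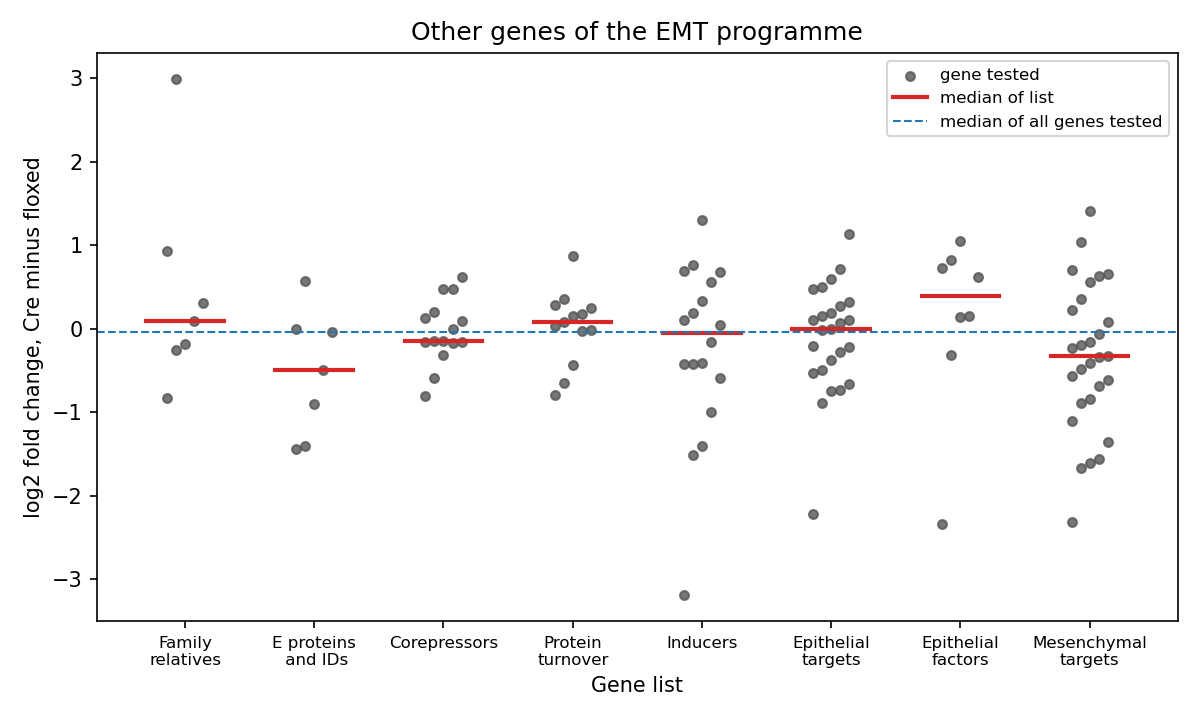
Log2 fold change (Cre minus floxed, vertical axis) of every tested gene in 8 lists; points are genes, red bars are list medians and the dashed line is the median of all tested genes. Medians lie between -0.50 for E proteins and IDs and 0.39 for epithelial transcription factors, on both sides of the dashed line at -0.03.

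The genes whose pattern over the 4 libraries was most like each factor were found by the Euclidean distance between log2(FPKM + 1) values centred on their mean; 4 points make many genes look alike. Nearest to Snai1 were Asf1b, a histone chaperone of dividing cells (distance 0.05), and Mpeg1, a macrophage perforin (0.07), and 31 genes lay within 0.25. Snai2 was nearest to Ripor2 (0.05) and Spty2d1 (0.06), with 59 genes within 0.25, and Prrx1 to Slc5a3, a myo-inositol transporter (0.05), and C1ql1 (0.05), with 128. Zeb1 lay closest to Pknox2 (0.06) and to Itga1, an integrin chain (0.07), with 112 within that distance, and Zeb2 to the splicing factor gene Prpf8 (0.03), with 389. For Twist1 the nearest were Slc22a17 (0.01) and Mast3 (0.02), with 687, and for Twist2 they were Dnm3os (0.03) and Eftud2 (0.05), with 425. Of the 7 profiles, those of Snai1 and Snai2 thus had the fewest genes close to them, and that of Twist1 the most. The values were not scaled to their spread. The counts ran in the order of the largest over the smallest FPKM, from 4.44 for Snai1 to 1.55 for Twist1. They therefore do not show how distinct a pattern is.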

How the data were processed

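Each of the 4 libraries had 1 table of 28545 genes. Columns of raw counts and of FPKM stand side by side in the deposited tables, per the file headers. The deposited FPKM values equal the count over gene length and total count, with the same length within 1e-06 in all 23463 genes that could be compared, so depth is known. HISAT2, HTSeq 0.13.5 and GRCm38 are named in the submitters' processing notes; whether counting used strand is not given in the sources used here. Lengths lay within 0.1 percent of the GENCODE release 21 exon length for 98.3% of 23421 genes.

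Counts were tested with edgeR 4.0.16 (R 4.3.3) as quasi-likelihood tests with TMM scaling and no term besides group (residual degrees of freedom: 2). A filter on mean FPKM, at least 1, kept 13513 genes and dropped 15032. Tests are two-sided, with Benjamini-Hochberg adjustment over every gene kept; SE equals the log2 fold change over the square root of F. The fit was tested on simulated data. Alternatives were no filter or a mean FPKM of at least 5, median-of-ratios and total count scaling, DESeq2 1.42.0, limma 3.58.1 on log2(FPKM + 1) or + 0.1, the replicate number as a block, and each library left out; when a library is left out, the lone library is assumed to vary like the other pair. Scaling to marker genes was added after the data were seen. RefSeq sequences are on GRCm38.p6; matches were searched on both strands in promoters.

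The members and lists were chosen with earlier results of these data known. Named genes were Smad7, the 7 members, the 4 genes of each list with the smallest p, the most abundant gene of each marker list, genes whose exons overlap those of a member, and the 2 genes nearest each member, of which 1 is not reported here. Other genes of the stroma, neutrophil and oviduct or ovary lists, Myh11, Cdh1, Cdh2, Epcam, Cldn7, the E protein genes and the low-count relatives were named outside that rule, after their values were seen. Replicate numbers were not taken as pairs in the main fit. Across genes, the deviations of floxed 1 and Cre 1 from their group means had a correlation of -0.0829. With 2 libraries per group the other pair mirrors this value, so it cannot show whether the libraries are paired. No other per-sample columns were present.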

Additional observations from a re-analysis of the deposited data

How the results depend on the processing

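The number of genes called was 0 in the edgeR fit and under both other scalings, limma on log2(FPKM + 1) and the replicate block. It was 1928 with no filter, 1 at a mean FPKM of at least 5, 843 with DESeq2, 4 with limma on log2(FPKM + 0.1) and 0 to 4249 with 1 library left out. At an unadjusted p under 0.05 the 1876 genes became 4198 with no filter, 1061 at a mean FPKM of at least 5 (fewer genes tested) and 618 to 5634 with 1 library left out. Among the 7 factors 0 were called in the edgeR fit. With no filter 3 were called (Snai1, Snai2, Prrx1), where 7.04% of all genes were. With DESeq2 2 were called, where 6.24% of all tested genes were. With 1 library left out the log2 fold change ran from 1.11 to 1.42 for Snai2, 0.89 to 1.16 for Prrx1 and -2.08 to -0.51 for Snai1. Smad7 passed with no filter (2.37) and DESeq2 (2.43) and ran from 2.11 to 2.68 with 1 library left out. The cause of these shifts was not tested, beyond the spread being set by the Cre pair when a floxed library is out.

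Signs turned for Zeb1 (-0.21) and Zeb2 (-0.082) without floxed 2 (their leave-one-out ranges reached 1.18 and 1.002), for Twist1 relative to stroma markers (-0.023), for Zeb1 (-0.37), Zeb2 (-0.39) and Twist1 (-0.54) relative to smooth muscle markers, and for Snai2 (-0.12), Zeb1 (-0.90), Zeb2 (-0.93), Twist1 (-1.07) and Prrx1 (-0.36) relative to Myh11. Medians of the lists ran, with 1 library left out, from 0.005 to 0.615 for relatives (-0.18 at a mean FPKM of at least 5, with fewer genes tested), -0.21 to 0.21 for corepressors, -0.024 to 0.167 for protein turnover, -0.40 to 0.36 for inducers, -0.37 to 0.35 for epithelial targets, 0.055 to 1.452 for epithelial transcription factors and -0.60 to 0.47 for mesenchymal targets. Those of E proteins and IDs stayed between -0.66 and -0.35. With the replicate block 0 genes were called, with 1.26 for Snai2, 1.03 for Prrx1 and -1.30 for Snai1. The labels give the libraries no link beyond that number. Counts of the 7 factors ran from 123 (Twist2) to 3021 (Zeb2) per library.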
